A study of Saccharomyces cerevisiae with 4 samples.

Results

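Bromodomains are protein modules that bind acetylated lysines, above all those on histone tails, and so bring chromatin and transcription complexes to acetylated nucleosomes. The genes of 10 budding yeast bromodomain proteins were taken by systematic name from the 6388 gene probes of an oligonucleotide array: BDF1 (YLR399C), BDF2 (YDL070W), GCN5 (YGR252W), SPT7 (YBR081C), SNF2 (YOR290C), STH1 (YIL126W), RSC1 (YGR056W), RSC2 (YLR357W), RSC4 (YKR008W) and YTA7 (YGR270W). All 10 had a probe with 3 spots on every slide. Bdf1 and Bdf2 are related proteins that work with the general transcription factor TFIID, and Bdf1 is also a subunit of the SWR1 complex, which exchanges histone H2A for the variant H2A.Z. Gcn5 is the acetyltransferase and Spt7 a scaffold subunit of the coactivator SAGA, Snf2 is the motor of the remodeller SWI/SNF, Sth1, Rsc1, Rsc2 and Rsc4 belong to the remodeller RSC, and Yta7 is an ATPase that acts at histone genes.

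Messenger RNA was measured in 3 strains after 45 min in 0.6 mol/L NaCl. BF2B is deleted for BDF1 and BDF2 and carries a construct written BDF2 L together with the plasmid pYX242. BF2S has the same deletions and BDF2 L, and instead of pYX242 a second construct, SIR2 H. BF2 is deleted for BDF1 alone, keeps BDF2 at its own locus and carries the empty plasmids pYX242 and pRS316. All 3 strains thus lack BDF1, and no strain with BDF1 and no culture without salt was analysed here. The labels do not explain L and H. They do not name the parent strain either, or the promoter and copy number of the constructs, and BF2B and BF2 also differ in their plasmids. BF2B and BF2S were each hybridised with BF2 on 2 slides, the strain in Cy5 on slide 1 and in Cy3 on slide 2. Each comparison therefore rests on 1 RNA pair, no test was made, and each SD below is the technical spread of 2 hybridisations.

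Signals are spot medians minus the local background, in brightness units, and log2 ratios were taken after intensity-dependent correction of each slide. A channel counted as above background if 2 or more of a probe's 3 spots were brighter than their surroundings by 2 SD of the local background. Genes were called by the study's own criterion, a ratio over 2-fold the same way in both hybridisations, here with a channel above background on each slide. Blank spots had medians of 29 to 110 units on the BF2B slides. On the BF2S slides they reached 6049 and 5325 units in the BF2S channel and 1709 and 1768 units in the BF2 channel, so values of BF2S are given only for BDF1, BDF2 and the genes needed to read them.

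BDF2 was the 1 bromodomain gene called in BF2B, among the 5 of 10 that were above background on both slides. Its signal was 10555 units on slide 1 and 12797 units on slide 2 in BF2B, against 3271 and 4906 units in BF2. The BF2B signals exceeded both BF2 signals whichever dye was used, and the 3 spots of a channel lay between 10475 and 10622 units in BF2B on slide 1. The log2 ratios were 1.58 and 1.63, with a mean of 1.61 ± 0.03 (SD, 2 slides), or 3.04-fold. BDF2 was called higher, and 19 of the 4660 genes above background on the BF2B slides had a higher ratio. By the labels, BDF2 transcript came from BDF2 L in BF2B and from the chromosomal gene in BF2.

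A probe beside BDF2 followed it in BF2B. YDL071C, which by its systematic name is the next open reading frame to BDF2 on the left arm of chromosome IV and lies on the opposite strand, was chosen for description once its values had been looked at. It gave 937 and 1337 units in BF2B, against -112 and 60 units in BF2. In BF2B it was above background on both slides, and in BF2 on neither, so that BF2B was at least 3.07-fold higher. The labelled strand is not given, and an overlap of YDL071C with BDF2 or with the insert of BDF2 L was not checked here. The other neighbours within 2 positions did not share this pattern. YET3 (YDL072C), which encodes a protein of the endoplasmic reticulum, had a log2 ratio of 0.03 ± 0.03, and CBS1 (YDL069C) and YDL068W were not above background on either slide.

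In the sample labelled BF2S, which should carry the same BDF2 L, BDF2 did not show the BF2B level. Its signal was 3635 and 3274 units in BF2S, against 6972 and 5591 units in BF2, which is 0.521-fold and 0.586-fold before correction of the slides. They amounted to 0.601 and 0.615 times the blank median of the channel, although the spots themselves passed the local background. After loess correction the log2 ratios were 0.22 and 1.08, with a mean of 0.65 ± 0.61, which was not called. With the slides centred on their median in place of loess the value was -0.73, so the direction rests on the correction, and the share of genes called on these slides was 44.4%. The log2 ratio of BF2S minus that of BF2B was -1.36 between the slides with the strain in Cy5 and -0.55 between those with the strain in Cy3, a mean of -0.95 ± 0.58. YDL071C was not above background in BF2S, at 32.7 and -575 units, nor in BF2 on the same slides, at -298.5 and 68.5 units. The high signal of that probe was therefore seen in BF2B and not in the sample labelled BF2S, in which the limit for a call above background was also higher (a spot brightness of 1006 and 2857 units in BF2S, against 242 and 1306 units in BF2B).

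BDF1 is deleted in every strain, so no sample here can show whether its probe gives a signal when the gene is present. On the BF2B slides its probe gave 1.67 and -197 units in BF2B, against -143 and -3.33 units in BF2. Every spot lay under the background limit, so no ratio can be read from them. The same held for GCN5, SNF2 and RSC1, which are not deleted, so a dark probe does not by itself show a deletion. The BDF1 probe was thus dark on slides on which BDF2, its closest relative, was above background in both channels, including the channels in which BDF2 was high. On the BF2S slides it gave 1580 and 419 units in BF2S, against 161 and 405 units in BF2. The channel in Cy5 was above background on each slide, BF2S on slide 1 and BF2 on slide 2, and the channel in Cy3 on neither. The log2 ratio of 1.64 ± 0.28 met the rule for a higher gene, as 19.3% of the genes above background on these slides did, while 25.1% were called lower. Before correction of the slides BDF1 was 9.8-fold higher in BF2S on slide 1 and 1.04-fold on slide 2. The ratio on slide 2 thus rests on the correction. All these BDF1 signals were at most 0.261 times the blank median of their channel, while the deletion is the same in both strains. Among the neighbours of BDF1, AFG2 (YLR397C) and YLR400W had ratios of 1.10 ± 0.32 and 1.02 ± 0.33 in the sample labelled BF2S, while SKI2 (YLR398C) had -0.31 ± 0.29. DUS3 (YLR401C), at -0.59 ± 0.60, was above background in neither channel of BF2S slide 1, so its ratio cannot be read. SIR2, the deacetylase gene on the construct SIR2 H, stood at 1.51 ± 0.18 in the sample labelled BF2S, close to the ratio of the deleted BDF1. Its BF2S signals were 0.287 and 0.248 times the blank median of their channel. In BF2 it did not pass the background limit on slide 1 of that comparison. On the BF2B slides SIR2 did not pass the background limit in either strain.

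**Figure D1:**
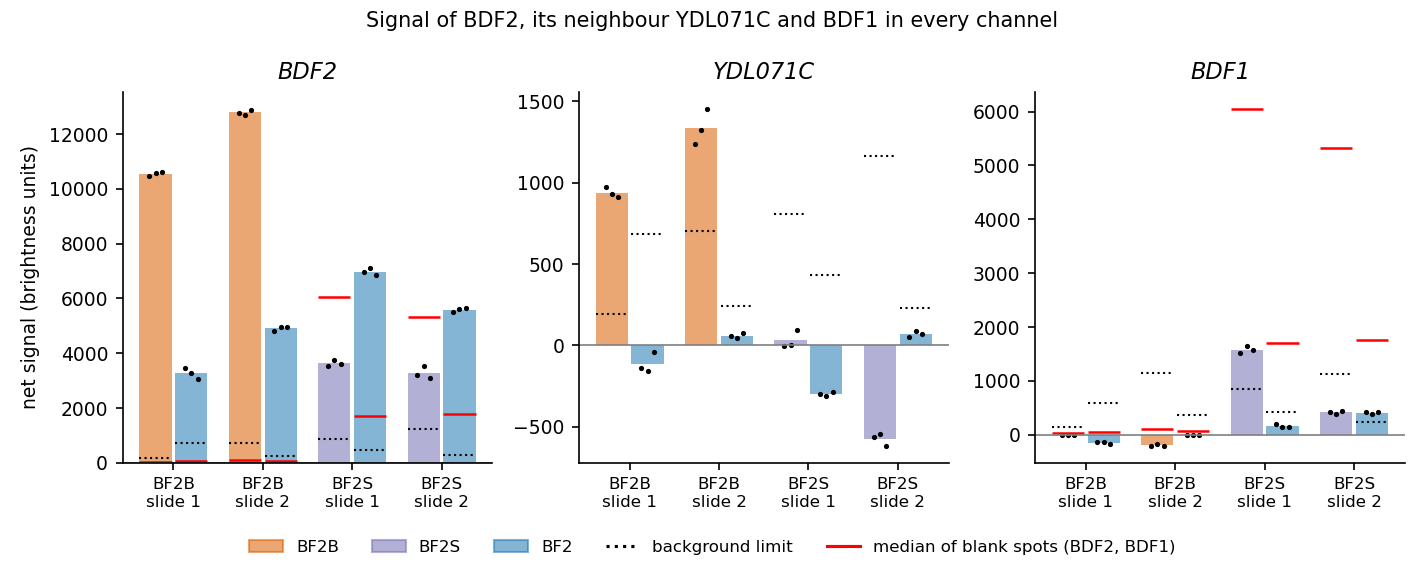
Net signal in brightness units of BDF2, its neighbour YDL071C and BDF1 in both channels of all 4 slides; bars are means of 3 spots, dots the spots, dotted lines the mean limit for a spot above background, and red lines the medians of blank spots. BDF2 and YDL071C stood highest in BF2B on both of its slides, and in BF2S the signals of BDF2 and BDF1 lay below the blank median.

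Apart from BDF1 and BDF2, no bromodomain gene is altered by construction in these strains. None of these 8 was called in BF2B, against 2.98% of all genes above background, 1.37% higher and 1.61% lower. Only 4 of the 8 could be read by the rule, STH1, RSC2, YTA7 and SPT7. The remaining 4, GCN5, SNF2, RSC1 and RSC4, were not above background on both slides, and with BDF1 5 of the 10 genes had no usable ratio. Over the 4 that could be read the median log2 ratio was 0.16, with 2 positive and 2 negative, and over all 8 probes it was -0.05. The median of all 4660 genes above background was -0.01.

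**Figure D2:**
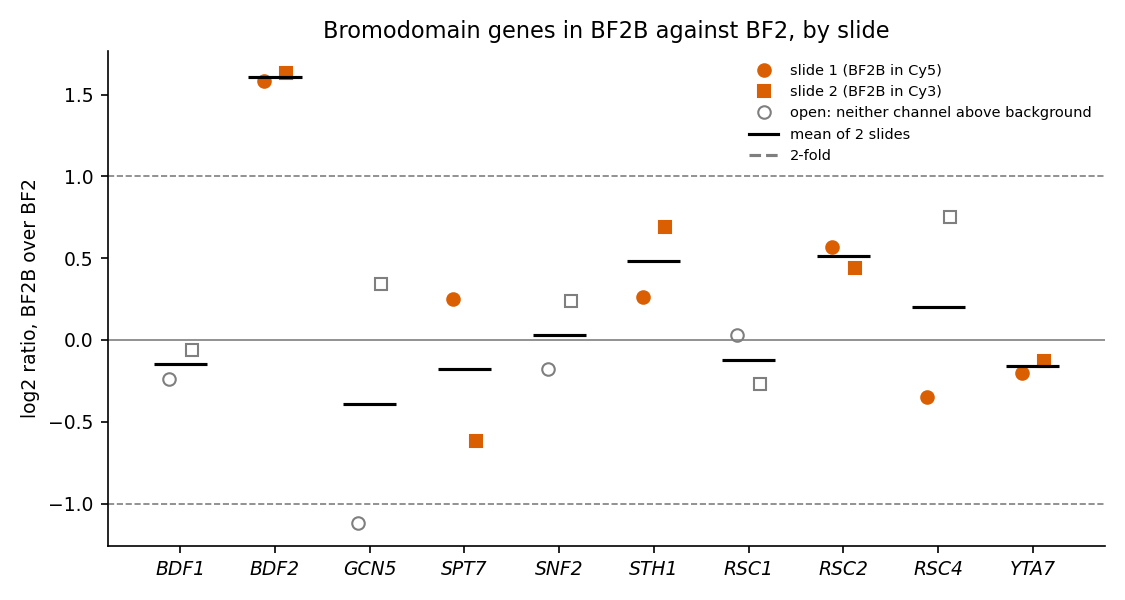
Log2 ratio of BF2B over BF2 for the 10 bromodomain genes on slide 1 (circles) and slide 2 (squares), with the mean as a bar and dashed lines at 2-fold; open symbols mark slides on which neither channel was above background. BDF2 lies beyond 2-fold on both slides, and STH1 and RSC2 lie above 0 on both.

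In the RSC complex, an essential remodeller that clears nucleosomes from promoters, the ATPase gene STH1 and the accessory subunit gene RSC2 were moderately higher in BF2B on both slides. STH1 gave 1651 and 1923 units in BF2B, against 1304 and 1330 units in BF2. Its log2 ratios were 0.26 and 0.69, with a mean of 0.48 ± 0.31, or 1.39-fold. RSC2 gave 1941 and 2202 units in BF2B, against 1211 and 1845 units in BF2. Its log2 ratios were 0.57 and 0.44, with a mean of 0.51 ± 0.09, or 1.42-fold. For both genes the BF2B signal was the higher one on each slide, but both values lie well inside 2-fold: 18.2% of genes above background had a larger absolute ratio than STH1, and 16.2% a larger one than RSC2. The error of a mean ratio, taken from the disagreement of the slides over the 500 genes of most similar intensity, was 0.15 for STH1 and 0.16 for RSC2. With 2 errors on either side, hybridisation alone leaves a range of 0.17 to 0.78 for STH1 and of 0.19 to 0.82 for RSC2, and the spread between cultures would come on top.

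RSC1, the paralogue of RSC2, was not above background in any channel of the BF2B slides, with 23.0 and 40.0 units in BF2B, against -122 and 155 units in BF2. The same held for SNF2, the relative of STH1 in SWI/SNF, with 84.5 and 132 units in BF2B, against 17.3 and 147 units in BF2. In each of the related pairs BDF1 and BDF2, RSC1 and RSC2, and SNF2 and STH1, 1 probe was above background in both strains and the other in neither. For BDF1 the gene is deleted, and for RSC1 and SNF2 these slides cannot separate a low transcript from a weak probe.

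RSC4, whose product binds acetylated histone H3, gave 267 and 382 units in BF2B, against 297 and 230 units in BF2. It was above background in BF2B on slide 1 alone. Its log2 ratios of -0.35 and 0.75 went opposite ways, and in both the Cy3 channel was the brighter one. GCN5 behaved alike, with 87.2 and 136 units in BF2B, against 236 and 135 units in BF2, and log2 ratios of -1.12 and 0.34 from signals below the limit in all channels. In the authors' deposited table, which takes a single spot without loess, GCN5 stood at -1.20 and -0.71 and RSC4 at -0.34 and 0.76. The direction of GCN5 on slide 2 thus differed between these treatments of signals under the limit, and no ratio was read for either gene.

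SPT7 followed the dye rather than the strain. It gave 358 and 201 units in BF2B, against 207 and 497 units in BF2, so that the strain in Cy5 was the brighter on each slide. The mean log2 ratio was -0.18 ± 0.61 and the part that follows the dye 0.43 (log2, Cy5 over Cy3). Local background was far lower in Cy5: a spot of SPT7 on slide 1 passed at 217 units of brightness in Cy5 and at 1307 units in Cy3. SPT7 was accordingly above background in BF2B on slide 1 and in BF2 on slide 2, and in no Cy3 channel. With 2 errors of 0.28 on either side its range was -0.75 to 0.38, which leaves its direction unsettled.

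YTA7 was the most even of the genes that could be read. It gave 1569 and 1587 units in BF2B, against 1770 and 2036 units in BF2. The log2 ratios were -0.20 and -0.13, with a mean of -0.16 ± 0.05, or 1.12-fold lower in BF2B. The range with 2 errors of 0.16 was -0.47 to 0.15 and includes 0, and 59.7% of genes had a larger absolute ratio.

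**Figure D3:**
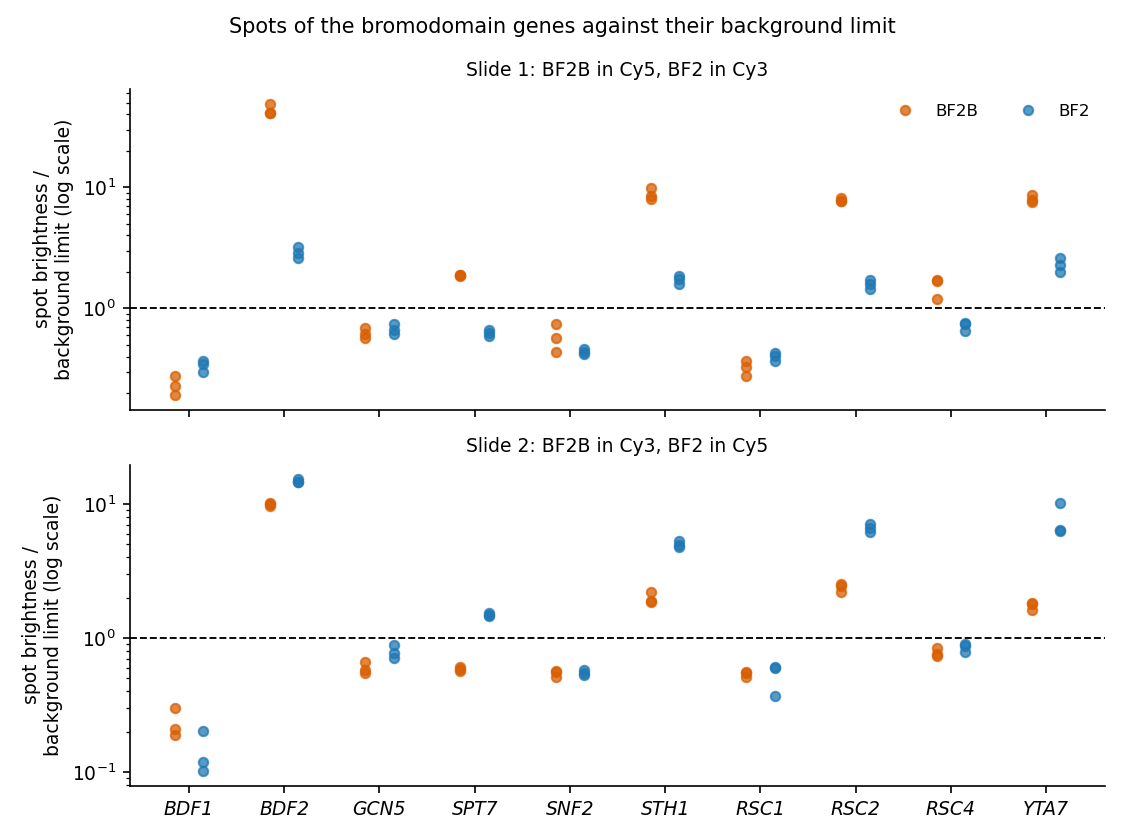
Brightness of each of the 3 spots of the bromodomain genes divided by that spot's background limit (log scale, dashed line at 1) in BF2B and BF2, with a panel for each BF2B slide. BDF2, STH1, RSC2 and YTA7 pass in both strains on both slides, SPT7 passes in Cy5 alone, and BDF1, GCN5, SNF2 and RSC1 pass nowhere.

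**Figure D4:**
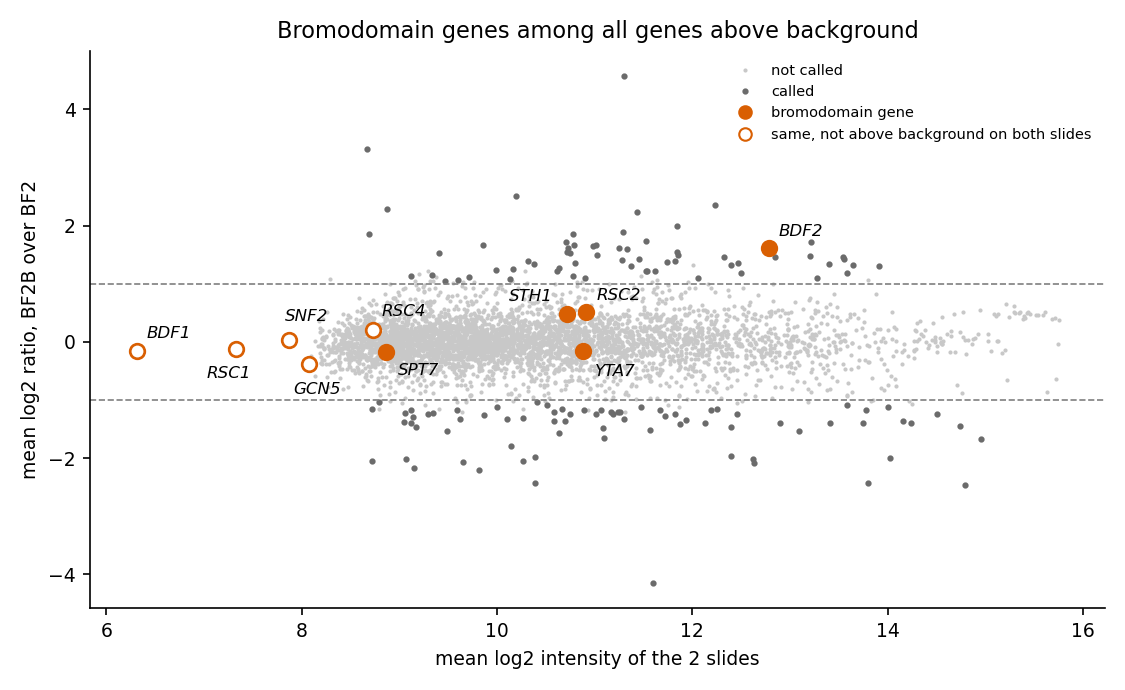
Mean log2 ratio of BF2B over BF2 against mean log2 intensity for the 4660 genes above background, with called genes dark, dashed lines at 2-fold and the bromodomain genes in orange, open where they were not above background on both slides. BDF2 stands out at 1.61, whereas STH1 and RSC2 lie at the upper side of the main cloud.

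Bromodomain proteins act inside complexes, so the subunits around them were listed, together with the enzymes that write and remove histone acetylation. Of 89 such genes with a matched probe, 71 were above background in the BF2B comparison and 0 were called in either direction, again beside 2.98% of all genes. Their median log2 ratio was 0.04, with quartiles of -0.09 and 0.15, while the quartiles of all genes were -0.21 and 0.20. With the threshold lowered to 1.5-fold, which 8.82% of all genes passed (4.16% higher and 4.66% lower), 2 of the partners were called, RSC8 lower and EAF6 higher.

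Of the 13 partners of the RSC bromodomain subunits, 9 were above background, with a median of 0.08. The highest was ARP7, an actin-related protein shared with SWI/SNF, at 0.22 ± 0.04. The lowest was RSC8 (YFR037C), a core subunit of the complex, at -0.96 ± 0.08, with 912 and 856 units in BF2B, against 1752 and 2216 units in BF2. RSC8 was lower in BF2B on both slides, 1.95-fold on average, and missed the 2-fold threshold on slide 1 with -0.91. It lies on chromosome VI, whose 87 genes above background had a median of -0.75, beside -0.01 for the 4573 genes of the other chromosomes. The part of that shift in the RSC8 value was not tested. None of the 10 bromodomain genes lies on chromosome VI.

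The SWI/SNF partners had a median of 0.05 over 9 of 11 genes. SNF11 was lowest at -0.73 ± 0.24 and ARP7 highest, and SWP82 (YFL049W), another gene of chromosome VI, stood at -0.60 ± 0.36. The partners of Gcn5 and Spt7 in SAGA and the ADA complex were close to 0, with a median of 0.03 over 15 of 17 genes and a range from -0.22 ± 0.23 for TAF6 to 0.35 ± 0.04 for HFI1, which encodes an adaptor subunit. SUS1, also on that list, had no matched probe. In TFIID, the partner of Bdf1 and Bdf2 at promoters, all 15 subunits were above background and 11 of them lay below 0. Among all 4660 genes above background, 2404 lay below 0. The TFIID median was -0.08, and the subunits lay between -0.30 ± 0.08 for TAF4 and 0.20 ± 0.07 for TAF13.

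The SWR1 complex and H2A.Z had a median of 0.06 over 11 of 13 genes, from ARP6 at -0.17 ± 0.30 to VPS72 at 0.24 ± 0.36. Among the enzymes of histone acetylation, the NuA4 acetyltransferase, which makes acetyl marks on histone H4 that Bdf1 binds, had a median of 0.15 over 11 of 12 genes. Its subunit gene EAF6 stood at 0.69 ± 0.02, or 1.61-fold, and EPL1 (YFL024C, on chromosome VI) was lowest at -0.42 ± 0.74. The other histone acetyltransferases had a median of -0.04 over 6 of 8 genes, from SAS3 at -0.23 ± 0.67 to SAS2 at 0.18 ± 0.27. The histone deacetylases, with the sirtuins, had a median of 0.04 over 7 of 13 genes, from HOS3 at -0.15 ± 0.04 to HDA2 at 0.27 ± 0.01. Several of these medians differed between the slides. For a slide alone the background rule was applied to that slide, so the genes counted can differ. On slide 1 and slide 2 alone the medians were 0.09 and -0.33 for the SWI/SNF partners, 0.11 and 0.01 for RSC, 0.03 and -0.02 for SAGA and ADA, and 0.16 and 0.05 for NuA4. For SWR1 they were 0.12 and 0.02, for TFIID -0.13 and -0.04, for the other acetyltransferases 0.08 and -0.17, and for the deacetylases -0.11 and 0.13. The sign thus turned between slides for SWI/SNF, SAGA and ADA, the other acetyltransferases and the deacetylases, and the order of the lists is not read. The lists share some subunits, such as ARP7 and TAF6, and are not independent.

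**Figure D5:**
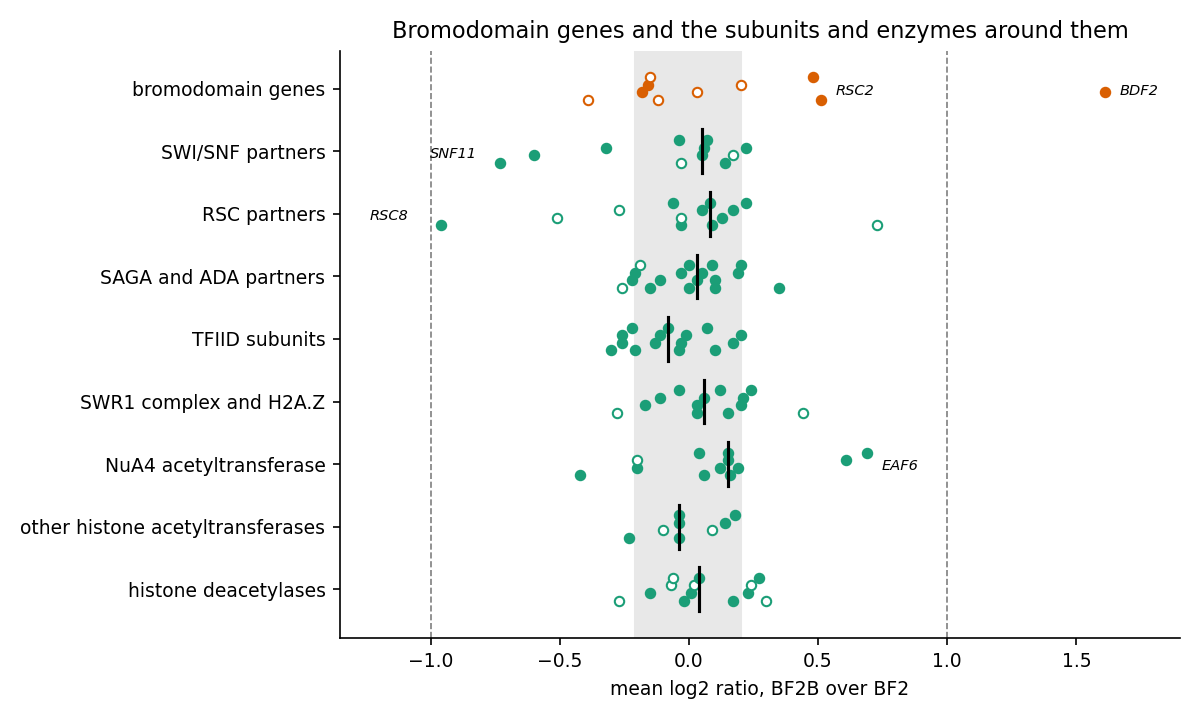
Mean log2 ratio of BF2B over BF2 for the bromodomain genes and for 8 lists of complex partners and acetylation enzymes; points are genes (open where not above background on both slides), bars the medians of the filled points in each list of partners, the grey band the range between the quartiles of all genes and dashed lines 2-fold. The partners lie between RSC8 at -0.96 and EAF6 at 0.69 among genes above background, and BDF2 at 1.61 is the single point beyond 2-fold.

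The genes most like BDF2 in their ratios were taken by the smallest Euclidean distance between log2 ratios, among genes with at least 1 channel above background on each slide used. Over the 2 BF2B slides the nearest of 4659 genes were the a-factor gene MFA2 (distance 0.04), the mannoprotein gene SRL1 (0.09), SVS1 (0.12), RGI1 (0.14) and the iron permease gene FTR1 (0.18). MFA2 had log2 ratios of 1.62 and 1.61, against 1.58 and 1.63 for BDF2. Over all 4 slides the nearest of 4313 genes were the metallothionein gene CUP1-1 (0.56), YNL170W (0.73), the zinc transporter gene ZRT1 (0.81), TOS6 (0.82) and FTR1 (0.83). These distances use the BDF2 ratios of 0.22 and 1.08 on the BF2S slides. The direction of those ratios rests on the loess correction, so the order of these genes is not read. CUP1-1 has a near-identical copy, CUP1-2, from which its probe may not be separate. The points of each comparison share their RNA pair, and a small distance over 2 or 4 slides describes these hybridisations alone.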

How the data were processed

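Per the labels' protocols, total RNA was linearly amplified and copied into Cy5- or Cy3-labelled DNA, and pairs were hybridised to oligonucleotide slides. Per the file headers, the deposited scanner files give spot and background intensity for 635 nm (Cy5) and for 532 nm (Cy3), and a mark per spot, 100 or -100, a score that is not explained. The deposited value table holds log2 ratios. Set against the scanner files, these were strain over BF2 from background-subtracted medians of a probe's first spot, without centring (63.4% to 69.8% of values within 0.001, r of at least 0.9998, column medians 0.20, -0.29, 0.23 and -0.80). The sources used here name neither scanner nor labelled strand.

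Spot medians were corrected in limma 3.58.1 (R 4.3.3) by normexp with an offset of 50 and by loess on gene spots, 3 spots were averaged, and ratios were turned by the labels' dyes. Counts and plots were made in Python 3.11.15 with pandas 2.3.3 (numpy 2.4.6) and drawn by matplotlib 3.10.9. Among 6388 gene probes, 5806 matched the gene table (R64). Marked spots were kept. On arrays the number of slides limits precision. Only the slide correction and the 2-fold rule were checked on simulated data, with unchanged genes and changes beyond 2-fold. The background filter and the bounds were not part of that check.

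Bounds set a dim channel to the lowest signal above background, after Aquantile scaling. The members and lists were chosen with earlier results of these data known. Text names were fixed by rule: all members, the highest and lowest gene and any called gene of each list, the 5 nearest genes to BDF2, and SIR2. SWP82, YDL071C and the other neighbours of BDF1 and BDF2 were added after their values were seen. Alternatives were median centring, raw spot medians with no background subtracted, a normexp offset of 10, scaling between slides, the value table, spot medians, leaving out marked spots, other filters and thresholds, and each slide alone.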

Additional observations from a re-analysis of the deposited data

Results flagged for a closer look

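Of the bromodomain genes not used in the comparison with BF2S, 3 were above background in that sample and over 2-fold higher on both slides. Their mean log2 ratios of BF2S over BF2 were 3.0 ± 1.25 for GCN5, 2.59 ± 0.79 for RSC1 and 1.6 ± 0.14 for SNF2. Before correction of the slides GCN5 was 3.67-fold and 2.68-fold, RSC1 3.85-fold and 2.83-fold, and SNF2 3.93-fold and 2.41-fold. After loess the log2 ratios were 2.12 and 3.88 for GCN5 and 2.03 and 3.15 for RSC1. The size of these 2 ratios thus depends on the correction. Of all 5290 genes above background on these slides, 19.3% were called higher and 25.1% lower. GCN5 gave 7203 and 9783 units in BF2S, against 1962 and 3653 units in BF2. The signals of RSC1 were 6889 and 7493 units in BF2S, against 1789 and 2644 units in BF2, and those of SNF2 were 5156 and 2866 units in BF2S, against 1311 and 1192 units in BF2. The blank spots of the same slides had medians of 6049 and 5325 units in BF2S, against 1709 and 1768 units in BF2. All 3 genes thus read between 0.538 and 2.07 times the blank median of their channel, in both samples. The part of the signal on blank spots in these ratios was not tested.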

How the results depend on the processing

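No paired analysis was possible because both slides of a comparison hold 1 RNA pair and no test was made. BDF2 stayed the 1 bromodomain gene called in BF2B in every alternative but the 3-fold threshold, where none was, and its ratio was 1.54 without background subtraction, 1.5 in the value table and 1.58 to 1.63 on single slides. The 4660-gene comparison had 139 calls, 411 at 1.5-fold, 30 at 3-fold and 246 to 262 on single slides. Partner calls went from 0 to 2 at 1.5-fold and to 1 on either slide alone. Among the 8 other bromodomain genes, the median of the 4 above background, 0.16, was 0.08 in the value table and 0.16 to 0.25 on single slides. On single slides the background rule was applied to that slide alone, so RSC4 joined the 4 on slide 1. The median was 0.47 without marked spots and 0.48 with both channels above background, but SPT7 drops out of both of these. Without a filter, over all 8 genes, it was -0.05. In the sample labelled BF2S, 2351 calls became 1473 in the value table, 1303 without marked spots, 780 with both channels above background and 1102 at 3-fold. BDF2 there was -0.73 under median centring and -0.88 in the value table, and its difference to BF2B -2.31 and -2.38. Without background subtraction BDF1 was 1.03 there. Its difference to BF2B, 1.79, became 1.06, but neither can be read, because BDF1 was under the limit on the BF2B slides. The causes were not tested.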

Other observations

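The same 3 genes read differently in BF2 on the 2 pairs of slides, although the labels give BF2 as 1 strain under 1 treatment. BF2 gave 1962 and 3653 units for GCN5 on the BF2S slides, against 236 and 135 units on the BF2B slides. On the BF2B slides GCN5, RSC1 and SNF2 were under the background limit in BF2, so no fold is given for them. RSC1 gave 1789 and 2644 units on the BF2S slides, against -122 and 155 units on the BF2B slides, and SNF2 1311 and 1192 units, against 17.3 and 147 units. Over all gene probes the median was 2.07-fold in Cy3 and 1.86-fold in Cy5. BDF2 in BF2 was 2.13-fold and 1.14-fold higher on the BF2S slides, STH1 1.87-fold and 2.55-fold, RSC2 2.90-fold and 1.65-fold, and YTA7 1.77-fold and 1.19-fold. The slide pairs were not scaled to each other.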
